A study of Mus musculus with 8 samples.

Results

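The genes described here are 9 that detect bacterial products inside the cell or carry out the response to them. They are the receptors Nod1 and Nod2, the inflammasome sensors Nlrp3 and Nlrc4, the adaptor Pycard, the caspases Casp1, Casp4 and Casp8, and the pore-forming protein Gsdmd. They were taken by symbol from a deposited table of 55376 genes, and all 9 were found and tested. The counts come from RNA-seq of mouse dendritic cells grown from bone marrow and left overnight with heat-inactivated Prevotella melaninogenica (PM, 3 samples) or heat-inactivated Prevotella heparinolytica (PH, 3 samples). Samples of both groups carry the ids 1, 3 and 4. Nothing in the labels says whether an id is an animal or a culture, so the p-values cover only how these samples vary, which may be technical. The sources used here give neither the mouse strain nor the age. No untreated cells were analysed, so each value compares PM with PH and none compares either with resting cells.

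Totals ranged from 11624367 to 40233148 counts per sample. PH replicate 3, which had the lowest total, stood out by the predicted gene Gm42418, at 4029 CPM against 878 to 1496 in the other 5 samples. All levels given as CPM are counts scaled by library total with the TMM method.

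Nod1 and Nod2 are cytosolic receptors for fragments of bacterial cell wall peptidoglycan, and both signal through the kinase Ripk2 to NF-kB. Nlrp3 and Nlrc4 assemble inflammasomes, complexes that bring in caspase-1, for Nlrp3 through the adaptor Pycard (ASC). Nlrc4 is engaged through Naip proteins that bind flagellin and secretion system parts. Caspase-1 matures the cytokines IL-1 beta and IL-18 and cuts gasdermin D, whose freed end forms pores in the membrane, a lytic death called pyroptosis. In mice Casp4, also known as caspase-11, binds lipopolysaccharide of Gram-negative bacteria in the cytosol and cuts gasdermin D without the other sensors. Dendritic cells use these routes to release IL-1 family cytokines.

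Casp4 and Nod1 fell with PM, and the other 7 genes did not pass. Of the 9 genes, 2 passed, both lower with PM, in edgeR's quasi-likelihood F test at 0.05 after Benjamini-Hochberg adjustment across 14382 genes. Of all tested genes 2.34% passed, 1.64% lower and 0.702% higher. With the sample id as a block, 4 of the 9 were lower and 0 higher, adding Casp1 and Nlrp3, where 15.3% of all tested genes passed and 8.27% of all were lower. In DESeq2 3 of the 9 were lower (Nod1, Casp1 and Casp4) and 0 higher, where 4.15% of all genes passed, 2.70% lower and 1.44% higher. The median log2 fold change (PM over PH) of the 9 was -0.22, against 0.01 over all tested genes. The groups did not overlap for 3 of the 9, all with PM below PH, as for 9.28% of all tested genes (19.4% in either direction). PM was the lower of the pair in 3 of 3 ids for 8 of the 9, as for 22.0% of all tested genes, and the higher in 3 of 3 for 0 of the 9, against 23.8% of all. Some of these pair differences were slight, with the smallest at -0.02 on the log2 scale in each of Nod2, Casp8 and Gsdmd. The 9 genes were chosen with earlier results of these data known, so their counts and median are not independent evidence of a direction. In such bulk samples, fewer cells of a type and less RNA per cell cannot be told apart.

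**Figure D1:**
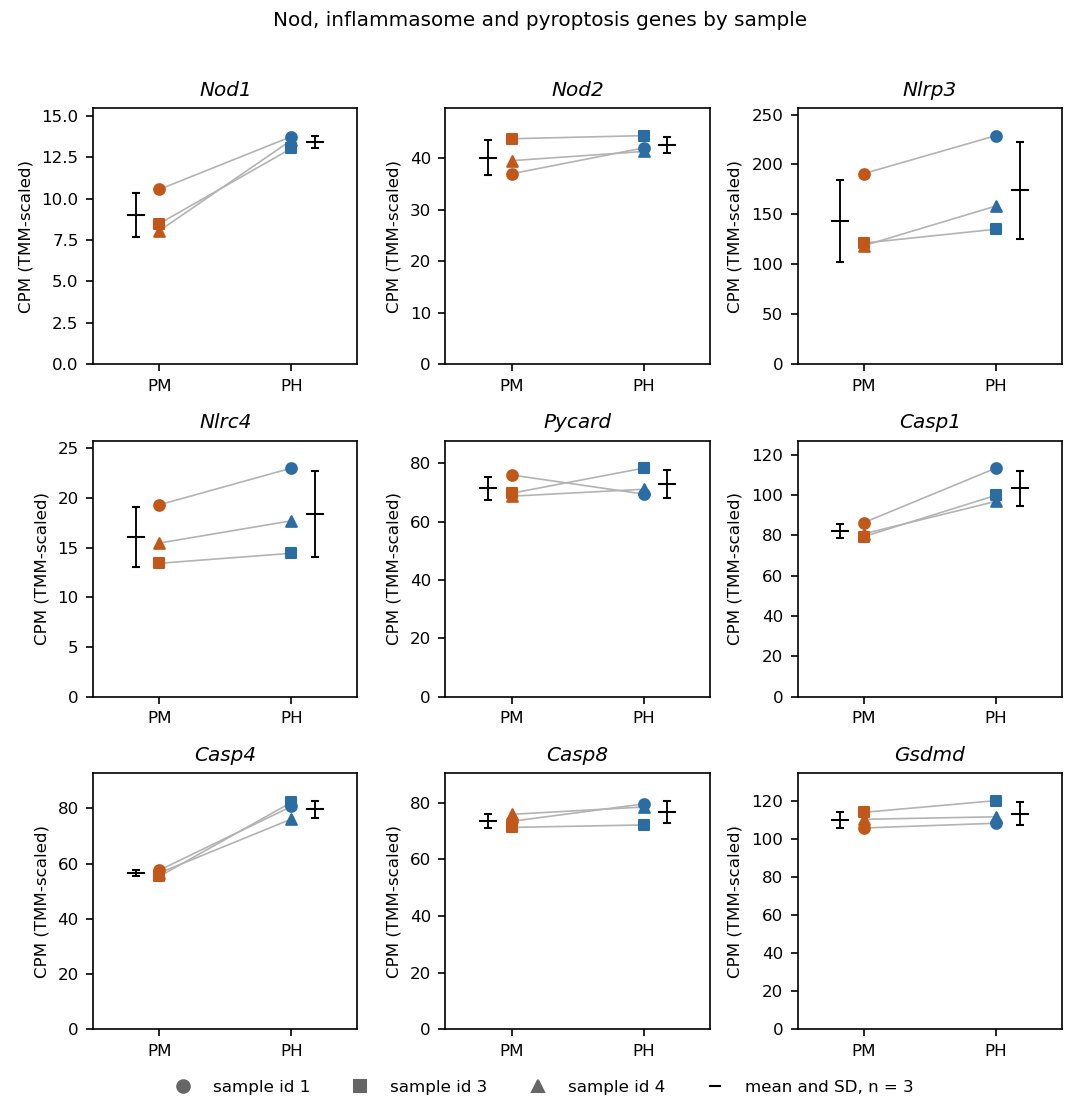
Level of each gene (TMM-scaled CPM, axes from 0) in the PM samples (left of each panel) and the PH samples (right), with grey lines joining samples of the same id and black bars giving mean and SD (n = 3). In the panels of Nod1, Casp1 and Casp4 every PM point lies below every PH point, while Pycard, Casp8 and Gsdmd overlap.

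Casp4 had little spread between samples of a group. It was at 57.6, 55.4 and 56.6 CPM with PM (ids 1, 3 and 4), against 80.7, 82.2 and 76.2 CPM with PH. The lowest PH sample was thus well above the highest PM sample. The means were 56.5 ± 1.13 CPM with PM and 79.7 ± 3.15 CPM with PH (SD, n = 3 each). Casp4 fell by 29.0% with PM, with a log2 fold change of -0.49 ± 0.06 (SE; edgeR adjusted p = 0.00305). Casp4 kept its call when any 1 sample was left out, at adjusted p from 0.00318 to 0.0246 in edgeR. In the 3 pairs of the same id, PM minus PH was -0.49, -0.57 and -0.43 on the log2 CPM scale.

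Casp1, the inflammasome protease, lies just before Casp4 on the same strand. Casp1 spans 5298508 to 5307290 and Casp4 5308849 to 5336783 on chromosome 9 (plus strand, GRCm38), with 1558 bases between them. Casp1 was at 86.3, 79.3 and 80.7 CPM with PM, against 113, 99.8 and 96.8 CPM with PH. All PM samples were below all PH samples, with a narrower gap than for Casp4. The means were 82.1 ± 3.67 CPM with PM and 103 ± 8.78 CPM with PH (SD, n = 3 each). Its log2 fold change of -0.33 ± 0.07 (SE) just missed the threshold (adjusted p = 0.0610 in edgeR). It passed with the sample id as a block (adjusted p = 1.02e-05 in edgeR) and in DESeq2 (adjusted p = 0.0101).

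The promoters of these neighbours are shown side by side, although Casp1 only just missed the threshold that Casp4 passed and was lower with PM as well. Each window runs from 250 bases before to 50 after the start and comes from RefSeq (GRCm38.p6), chr9:5308599-5308898 for Casp4 and chr9:5298267-5298566 for Casp1, both on the plus strand. Capitals mark matches to the NF-kB consensus, searched on both strands.
Casp4: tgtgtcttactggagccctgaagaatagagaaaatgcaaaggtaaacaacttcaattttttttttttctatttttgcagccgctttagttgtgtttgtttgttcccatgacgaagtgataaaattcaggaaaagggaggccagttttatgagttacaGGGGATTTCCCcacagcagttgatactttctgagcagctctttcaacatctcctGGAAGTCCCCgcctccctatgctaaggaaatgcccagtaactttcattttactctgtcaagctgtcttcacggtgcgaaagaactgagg
Casp1: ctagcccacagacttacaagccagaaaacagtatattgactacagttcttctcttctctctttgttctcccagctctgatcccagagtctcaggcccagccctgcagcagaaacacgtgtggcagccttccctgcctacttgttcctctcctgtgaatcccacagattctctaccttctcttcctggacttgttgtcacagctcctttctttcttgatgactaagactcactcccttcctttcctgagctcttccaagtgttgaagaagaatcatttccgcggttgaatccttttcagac
The Casp4 window held a run of overlapping matches that begins 93 bases before the start and a further match that begins 39 bases before it, while the Casp1 window held no match. This motif was added after the Casp4 sequence had been read, so the contrast between the windows is no test. The motif was not tested as a source of either gene's difference. It was found in 8.46% of all 32851 promoter windows and in 10.5% of the 13525 windows of tested genes. Of the 11 windows of the 9 genes, 3 held it. These are both Casp4 windows (which overlap almost fully and so share their matches) and 1 of the 2 of Nlrp3. As the Casp4 matches were known beforehand, this count is no test either. A narrower NF-kB form (GGGA, any 2 bases, TTCC) was in 1.47% of all windows and an interferon-response form (GAAA, any 2 bases, GAAA) in 3.44%, on either strand. Neither was in any of the 11. Windows were found for 8 of the 9 genes, all but Gsdmd.

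Nod1 (chromosome 6, 54923949 to 54972612, minus strand, GRCm38) had the lowest level of the 9 genes and the largest log2 fold change. Its counts were 221, 255 and 314 with PM, against 335, 151 and 544 with PH. These gave 10.6, 8.49 and 8.06 CPM with PM, against 13.8, 13.04 and 13.5 CPM with PH, so that the groups did not overlap. The means were 9.04 ± 1.34 CPM with PM and 13.4 ± 0.366 CPM with PH (SD, n = 3 each). Nod1 fell by 33.4% with PM, with a log2 fold change of -0.59 ± 0.12 (SE; edgeR adjusted p = 0.0375). The PM sample of id 1 was nearest to its PH partner, at a log2 difference of -0.38, against -0.61 for id 3 and -0.74 for id 4. The call was lost without PM replicate 3 or 4 or without PH replicate 1, 3 or 4 (adjusted p from 0.103 to 0.170 in edgeR) and kept without PM replicate 1 (0.00599).

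Of the 2 Nod1 starts in RefSeq, the window upstream of the inner one (chromosome 6, minus strand, GRCm38.p6, chr6:54971612-54971911) held the STAT-type form TTCNNNGAA. It is shown as the single match to that form in the 11 windows, in capitals, beginning 193 bases before the start.
Nod1: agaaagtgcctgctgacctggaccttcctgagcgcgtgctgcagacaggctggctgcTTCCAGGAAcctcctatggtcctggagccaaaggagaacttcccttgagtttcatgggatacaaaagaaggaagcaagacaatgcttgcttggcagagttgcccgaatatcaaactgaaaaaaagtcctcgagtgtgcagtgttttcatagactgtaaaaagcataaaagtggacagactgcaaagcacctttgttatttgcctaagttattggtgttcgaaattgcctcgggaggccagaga
This form reads the same on both strands and was in 8.30% of all 32851 windows. The window of the outer start, which is where the deposited table begins the gene, held none of the motifs searched.

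Nod2 (chromosome 8, 88647315 to 88688474, plus strand), the receptor for muramyl dipeptide, was at 37.0, 43.8 and 39.5 CPM with PM, against 42.0, 44.4 and 41.3 CPM with PH. The groups overlapped, and each PM sample was below its PH partner by a small amount. The log2 fold change was -0.08 ± 0.08 (SE, 95% interval -0.26 to 0.09, adjusted p = 0.72 in edgeR). The log2 ratio of Nod2 to Nod1 within a sample, in which the library scaling cancels, was 1.81, 2.37 and 2.29 with PM, against 1.61, 1.77 and 1.61 with PH. Its difference was 0.49, higher with PM in 3 of 3 ids, with p = 0.10 by a two-sided exact permutation test, the smallest p that 3 against 3 samples can give (0.20 adjusted over the 4 ratios tested).

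**Figure D2:**
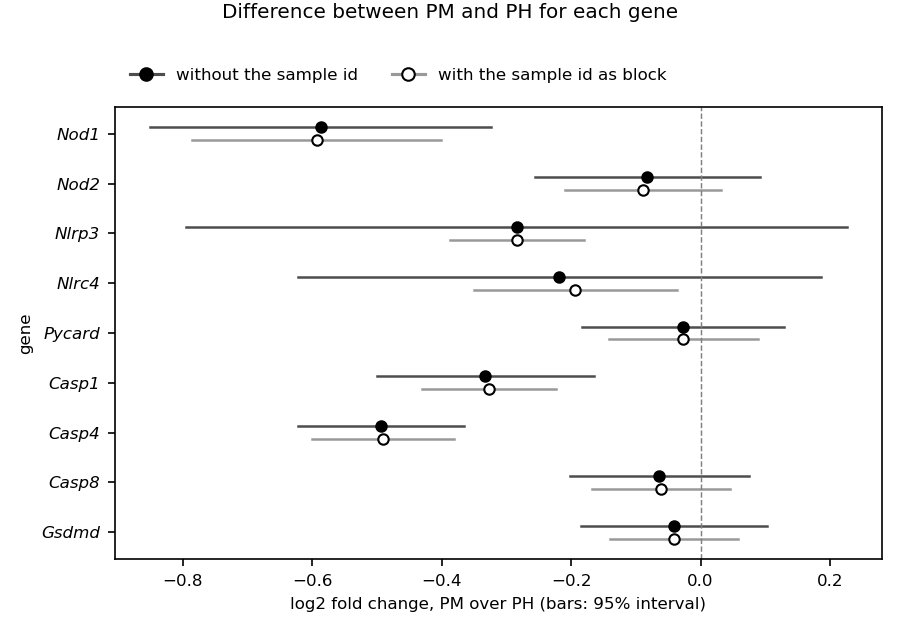
Log2 fold change (PM over PH) of each gene with its 95% interval, from edgeR without the sample id (filled points) and with the sample id as a block (open points). The interval of Nlrp3 is -0.79 to 0.23 without the block and -0.39 to -0.18 with it, while that of Casp4 hardly moves.

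Nlrp3 (chromosome 11, 59541568 to 59566956, plus strand) differed more between the sample ids than between the bacteria. It was at 191, 121 and 119 CPM with PM (ids 1, 3 and 4), against 229, 135 and 158 CPM with PH. Both samples of id 1 were above all the others, and the groups overlapped. The means were 144 ± 41.0 CPM with PM and 174 ± 48.8 CPM with PH (SD, n = 3 each). The log2 fold change was -0.28 ± 0.22 (SE) and did not pass (adjusted p = 0.666 in edgeR). Within the ids, PM minus PH was -0.26, -0.16 and -0.42 on the log2 scale. With the block Nlrp3 passed, at -0.28 ± 0.05 (SE, adjusted p = 8.8e-05 in edgeR). The means of the ids spanned 0.71 on the log2 scale, 2.49 times the difference between PM and PH.

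Nlrc4 (chromosome 17, 74425438 to 74459142, minus strand) followed the ids in a similar way, at 19.3, 13.4 and 15.4 CPM with PM, against 23.0, 14.4 and 17.7 CPM with PH. Again id 1 was highest under both bacteria. Id 3 was lowest under both, which for Nlrp3 held with PH only. The log2 fold change was -0.22 ± 0.18 (SE, 95% interval -0.62 to 0.19, adjusted p = 0.677 in edgeR). With the block it was -0.19 ± 0.08 (SE) and still did not pass (adjusted p = 0.0911 in edgeR). Without 1 sample it was -0.37 (without PM replicate 1) to -0.04 (without PH replicate 1). The span of the id means was 0.60 on the log2 scale, 2.73 times the difference between PM and PH. Across the 6 samples the log2 levels of Nlrp3 and Nlrc4 had r = 0.952, as a description over points that share 3 ids and 2 treatments. The log2 ratio of Nlrp3 to Nlrc4 averaged 3.14 ± 0.185 with PM and 3.24 ± 0.0769 with PH (SD, n = 3 each; two-sided exact permutation p = 0.60, 0.80 adjusted over the 4 ratios) and was lower with PM in 3 of 3 ids.

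The adaptor Pycard was at 76.1, 69.8 and 68.8 CPM with PM, against 69.5, 78.4 and 71.2 CPM with PH. It was the single gene of the 9 whose pairs differed in sign, with id 1 higher and ids 3 and 4 lower with PM. The log2 fold change was -0.03 ± 0.07 (SE, 95% interval -0.18 to 0.13, adjusted p = 0.914 in edgeR). Exons of Pycard (chromosome 7, 127989708 to 127993867, minus strand) overlap the opposite-strand gene Gm45205 over 12.8% of their length. The sources used here do not give the strand setting of the counting, so its level is uncertain by that part.

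Gsdmd (chromosome 15, 75862327 to 75867408, plus strand), which encodes gasdermin D, was at 106, 114 and 111 CPM with PM, against 108, 120.4 and 112 CPM with PH. The ranges overlapped in part, with means of 110.2 ± 4.13 CPM with PM and 114 ± 6.14 CPM with PH (SD, n = 3 each). Its log2 fold change was -0.04 ± 0.06 (SE), with a 95% interval of -0.18 to 0.10 and adjusted p = 0.847 in edgeR. Casp8 (chromosome 1, 58795374 to 58847503, plus strand), the protease of death receptor signalling that can also cut gasdermin D, was at 73.5, 71.3 and 75.9 CPM with PM, against 79.6, 72.2 and 78.5 CPM with PH. Its log2 fold change was -0.06 ± 0.06 (SE), with a 95% interval of -0.20 to 0.07 and adjusted p = 0.73 in edgeR. Neither passed with the block (adjusted p = 0.657 for Gsdmd and 0.503 for Casp8 in edgeR).

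**Figure D3:**
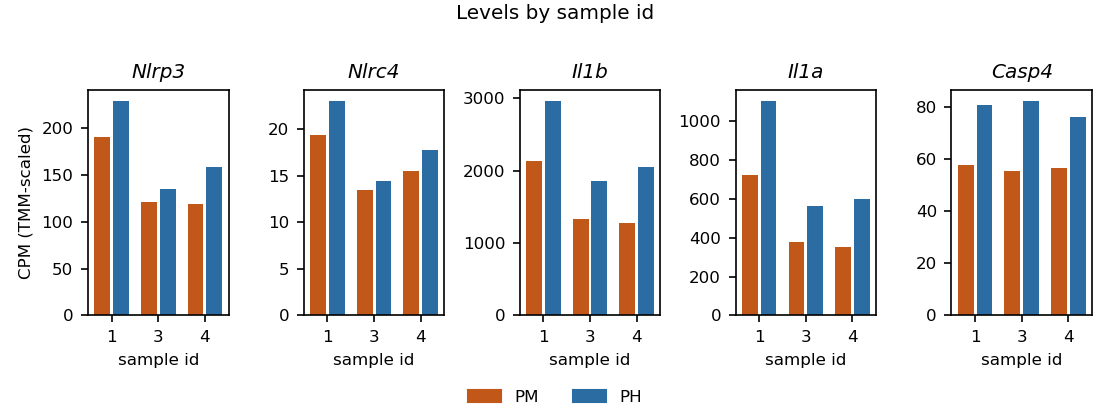
CPM (TMM-scaled, axes from 0) of Nlrp3, Nlrc4, the cytokine genes Il1b and Il1a, and Casp4, by sample id, with PM left of PH in each pair. The first 4 genes are highest in id 1 under both bacteria, while Casp4 is nearly level across ids and lower with PM in each.

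The span of the id means was set against the size of the difference between PM and PH in each gene, a ratio that is also high where that difference is small. For Casp4 the id means spanned 0.05 on the log2 scale, 0.110 times the difference between PM and PH, and for Nod1 and Casp1 they spanned 0.349 and 0.485 times that difference. For the other 6 genes the span was larger than the difference, by 1.66 times (Casp8) to 3.15 times (Gsdmd). Across the 6 samples the log2 levels of Casp4 had r = 0.928 with Casp1 and 0.927 with Nod1, while Gsdmd had r = 0.829 with Nod2 and -0.72 with Nlrc4. These values describe 6 points that share ids and treatments. The log2 ratio of Casp4 to Casp1 averaged -0.54 ± 0.0389 with PM and -0.37 ± 0.107 with PH (SD, n = 3 each), a difference of -0.17 that was negative in 3 of 3 ids (two-sided exact permutation p = 0.10, 0.20 adjusted over the 4 ratios). The ratio of Gsdmd to Pycard differed by -0.01 (exact permutation p = 1, also after adjustment).

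Scaled also by kilobase of annotated exon (RPKM), Gsdmd, Casp1 and Casp4 were far above both Nod receptors in each group. The order with PM was Gsdmd (61.5 ± 2.30 RPKM), Casp1 (53.6 ± 2.40), Casp4 (39.4 ± 0.785), Nlrp3 (35.4 ± 10.1), Casp8 (25.4 ± 0.799), Pycard (18.8 ± 1.04), Nod2 (8.31 ± 0.712), Nlrc4 (3.34 ± 0.622) and Nod1 (2.05 ± 0.303; SD, n = 3 each). With PH the order was the same but for Casp1 (67.5 ± 5.74 RPKM), which had a higher mean than Gsdmd (63.4 ± 3.43 RPKM). Gsdmd was above Casp1 in 3 of 3 PM samples with no overlap, while in PH the ranges overlapped and Casp1 was the higher in 2 of 3 samples. Neighbours whose ranges overlapped were Casp4 and Nlrp3 in both groups, and Nlrc4 and Nod1 with PH. The length counts all annotated exons, so a gene with long unused exons has too low a value.

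**Figure D4:**
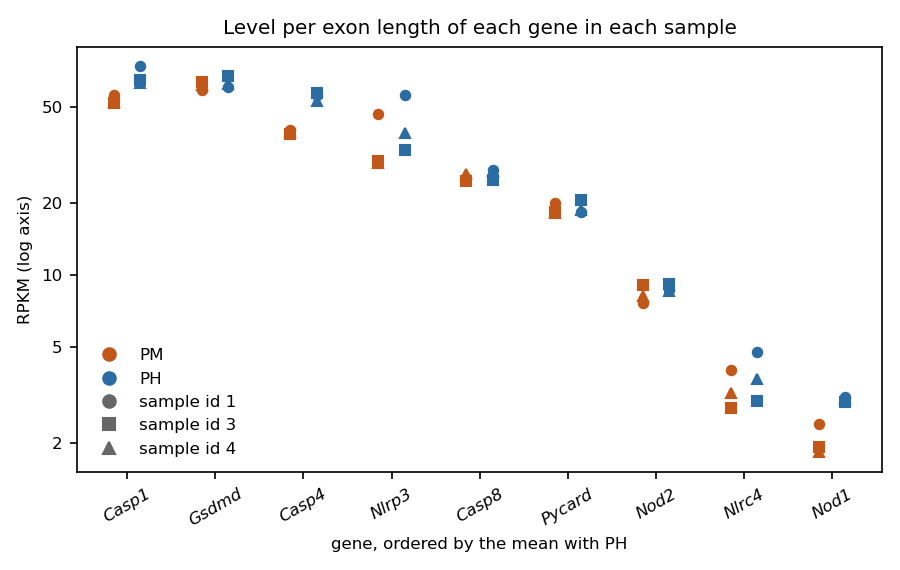
RPKM of each gene in each sample on a log axis, with PM left of PH for each gene and marker shapes for sample ids, ordered by the mean with PH. Levels run from 1.83 RPKM (Nod1, PM) to 74.0 RPKM (Casp1, PH), and Casp4, Casp1 and Nod1 are the genes whose groups stand apart.

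Around the 9 genes, 67 of 71 other genes of these pathways were tested, and 13 fell and 0 rose with PM (19.4%, where 1.64% of all tested genes fell and 0.702% rose). With the block 27 fell and 6 rose, where 1190 of all 14382 tested genes fell and 1007 rose. The blocked counts of single lists and of markers given below have the same background. The lists were put together with earlier results of these data known, so the list counts are not independent evidence of a direction. Of the 13, 7 belong to a list of upstream transcription factors and GTPases.

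Of that list, 7 of 12 fell (9 with the block) and 0 rose. The list holds interferon-response genes and the NF-kB subunits Nfkb1 and Rela, which did not pass in either fit. The median over the 12 was -0.60 (log2 fold change, against 0.01 over all tested genes). Among them were the transcription factor Irf1 (-0.54 ± 0.09, SE) and the GTPases Gbp2 (-0.999 ± 0.07), Gbp3 (-0.996 ± 0.08), Gbp5 (-0.96 ± 0.13), Igtp (-1.26 ± 0.08) and Irgm1 (-1.19 ± 0.10). Guanylate-binding proteins coat bacteria in the cytosol and expose lipopolysaccharide to caspase-11. Gbp2 averaged 184 ± 6.99 CPM with PM and 367 ± 21.1 CPM with PH (SD, n = 3 each; adjusted p = 3.3e-04 by edgeR). Gbp genes include near-identical copies whose reads may have been shared out, which makes single values uncertain. Irf1 lost its call without PM replicate 4 (adjusted p = 0.106) or PH replicate 3 (0.0671, both edgeR).

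Among 12 genes of Nod signalling, 1 fell and 0 rose, or 5 and 2 with the block. It was Tnfaip3 (A20), a ubiquitin-editing brake on NF-kB, at 395 ± 3.54 CPM with PM and 585 ± 38.0 CPM with PH (SD, n = 3 each; -0.56 ± 0.07 SE on the log2 scale, edgeR adjusted p = 0.00444). Ripk2, named here for its role and after its values were seen, averaged 82.8 ± 4.78 CPM with PM and 92.7 ± 4.34 CPM with PH (SD, n = 3 each). Its log2 fold change of -0.16 ± 0.07 (SE) did not pass (adjusted p = 0.339 by edgeR) but did with the block (0.0256).

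Of 11 other NLR genes tested, 1 fell and 0 rose, or 3 and 1 with the block. It was Nlrc5, the transactivator of MHC class I genes, at 38.9, 50.3 and 48.2 CPM with PM, against 71.9, 80.9 and 69.4 CPM with PH (log2 fold change -0.69 ± 0.10 SE; edgeR adjusted p = 0.00999). The groups were clearly apart. The Naip genes, partners of Nlrc4, did not pass. Naip6 came closest, at 13.045 ± 0.543 CPM with PM and 16.4 ± 1.23 CPM with PH (SD, n = 3 each; adjusted p = 0.128 by edgeR, 0.00922 with the block). Naip genes are close copies of each other, so their values are uncertain, and Naip6 was named after its values were seen.

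Of 12 other inflammasome sensors and regulators, 0 passed in edgeR, although 3 had an unadjusted p under 0.05 and 1 passed in DESeq2. With the block 3 fell and 1 rose, and with no filter on low counts 1 fell and 1 rose without the block. The lowest p values were those of Mefv, which encodes the sensor pyrin, and of the protease inhibitor Serpinb1a. Mefv averaged 24.8 ± 3.86 CPM with PM and 33.5 ± 2.63 CPM with PH (SD, n = 3 each; -0.44 ± 0.11 SE on the log2 scale, adjusted p = 0.0974 by edgeR, 5.1e-06 with the block). Serpinb1a averaged 20.3 ± 0.387 CPM with PM and 24.3 ± 2.11 CPM with PH (SD, n = 3 each; -0.25 ± 0.08 SE on the log2 scale, edgeR adjusted p = 0.208, 0.0122 with the block). The blocked call of Serpinb1a was lost without id 3 (adjusted p = 0.121) or id 4 (0.0860, both edgeR), while that of Mefv was kept without any 1 id.

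**Figure D5:**
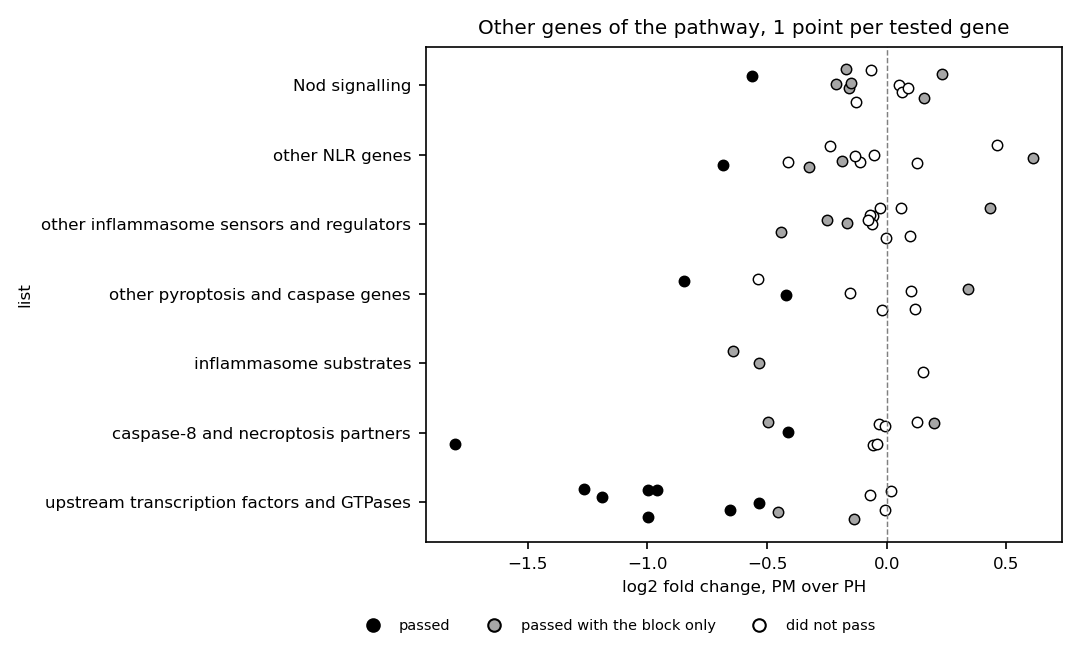
Log2 fold change (PM over PH) of the 67 tested genes of the 7 lists, 1 point per gene with random vertical scatter within a list, filled where the gene passed, grey where it passed in the fit with the block and not in that without it, and open where it did not pass. The 13 filled points all lie below 0, with Zbp1 lowest at -1.81.

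Of the cytokine genes whose products inflammasome proteases act on or help release, Il1b and Il1a were highest in id 1, as Nlrp3 was. Of the 3 tested, 0 passed in edgeR (1 at an unadjusted p under 0.05) and 0 in DESeq2, while 2 fell with the block. Il1b was at 2139, 1336 and 1283.5 CPM with PM (ids 1, 3 and 4), against 2966, 1864 and 2056 CPM with PH. Its log2 fold change of -0.53 ± 0.23 (SE) had adjusted p = 0.36 by edgeR, or 4.2e-10 with the block. Il1a was at 725, 378 and 353 CPM with PM, against 1105, 563 and 599 CPM with PH. Its log2 fold change of -0.64 ± 0.32 (SE) had adjusted p = 0.451 by edgeR, or 3.8e-12 with the block. Without 1 sample, the log2 fold change of Il1a was -1.06 (without PM replicate 1) to -0.27 (without PH replicate 1), and that of Il1b -0.82 to -0.31 without the same samples. For both, id 1 was the highest of its group, as it also was for the macrophage marker Adgre1.

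Of 8 other pyroptosis and caspase genes tested, 2 fell and 0 rose, or 2 and 1 with the block. Gzmb, a protease of cytotoxic lymphocytes that can cut caspases, averaged 9.06 ± 0.624 CPM with PM and 16.3 ± 0.953 CPM with PH (SD, n = 3 each; adjusted p = 0.00282 by edgeR).

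Of 9 partners of caspase-8 and necroptosis genes, 2 fell and 0 rose, or 3 and 1 with the block. Zbp1, a sensor of unusual nucleic acids that leads to caspase-8 and Ripk3, was at 11.5, 11.9 and 11.9 CPM with PM, against 44.2, 38.0 and 41.0 CPM with PH (log2 fold change -1.81 ± 0.08 SE; edgeR adjusted p = 6.4e-05). Cflar (c-FLIP), the inhibitor of caspase-8, averaged 236 ± 8.84 CPM with PM and 313 ± 24.1 CPM with PH (SD, n = 3 each; -0.41 ± 0.07 SE on the log2 scale, edgeR adjusted p = 0.0238). Its call was lost without PM replicate 3 or 4 or PH replicate 1 or 4 (adjusted p from 0.0562 to 0.126 in edgeR).

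In likeness over the 6 samples, the 5 genes nearest to Casp4 among 8761 genes of at least 10 CPM were Btla (r = 0.999), Sema4a (0.996), Exoc6b (0.996), Mapkbp1 (0.994) and Igtp (0.994), by Pearson's r of log2 CPM. The 5 nearest to Nlrp3 were Psmd10 (r = 0.998), Ganab (0.998), Pilrb2 (0.996), Macf1 (0.996) and Cav1 (0.996). These r values describe 6 points that share ids and treatments, and the nearest genes were picked from all 8761. Of the genes near Casp4, Btla (-0.93), Sema4a (-0.34), Mapkbp1 (-0.49) and Igtp (-1.26) fell with PM (log2 fold change), while 0 of the 5 near Nlrp3 passed (adjusted p from 0.644 to 0.820 in edgeR). Since they were picked by r over the same samples, their differences follow those of Casp4 and Nlrp3 and are no separate result.

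Dendritic cell markers were present in each sample, among them H2-Ab1 (757 ± 29.7 CPM with PM and 817 ± 74.0 CPM with PH), Ccr7 (3911 ± 397 and 4049 ± 388) and Flt3 (55.2 ± 6.80 and 52.6 ± 8.38; SD, n = 3 each). Monocyte and macrophage genes such as Chil3 and Adgre1 were present too, whereas C1qa averaged 0.0416 CPM with PM and 0.0742 CPM with PH, and Ncr1 0.0663 and 0.0864 CPM. Of 42 markers tested, 2 fell (Cx3cr1, -0.78, and Csf3r, -0.96, log2 fold change) and 1 rose with PM, or 11 and 4 with the block. Summed marker levels overlapped between the groups for each of the 6 cell types, at 8769.5 to 10468 CPM with PM and 8989 to 10906 CPM with PH for dendritic cells, and at 797 to 1084 and 691 to 973 CPM for macrophages. The sums were 6449 to 8327 CPM with PM and 5861.5 to 7932 CPM with PH for monocytes, and 498 to 831 and 524 to 749 CPM for neutrophils. They were 14.95 to 27.3 CPM with PM and 19.9 to 31.0 CPM with PH for T and NK cells, and 9.95 to 22.1 and 9.59 to 18.1 CPM for B cells. The sums rest mainly on abundant genes, such as Chil3 for monocytes (means of 5956 CPM with PM and 5625 CPM with PH). Single markers can therefore differ where sums overlap. In DESeq2 7 markers passed, among them Irf4, lower with PM, and Cd68, higher with PM. Some markers also differed between the ids. Adgre1 was at 609, 420 and 433 CPM with PM (ids 1, 3 and 4), against 635, 416 and 461 CPM with PH. Ccr7 was lowest in id 1 under both bacteria, at 3487 CPM with PM and 3672 CPM with PH. Flt3 and Zbtb46 were likewise lowest in id 1, while Itgax was highest there. The part of these markers in the differences above, between groups or ids, was not tested.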

How the data were processed

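RNA of mouse bone marrow dendritic cells was made into strand-marking libraries of polyadenylated RNA, per the labels' protocols. The authors deposited raw counts of reads for each gene, without normalization. GRCm38, featureCounts 1.6.4, STAR 2.5.3a and Trimmomatic are named, per the submitters' processing notes. The annotation, the strand setting and the handling of multi-mapping reads were not stated. Of the 8 libraries listed, 2 are second runs of PM id 1 and PH id 3, and the sources used here do not say whether the count columns of these ids hold both runs. Each of the 6 columns was taken as 1 sample, and every pair of them differed beyond sampling noise (chi-square per degree of freedom at least 4.63).

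The test was that of edgeR 4.0.16 in R 4.3.3, after filterByExpr (minimum count 10) and TMM scaling, with glmQLFit (robust), glmQLFTest, no covariate and a Benjamini-Hochberg threshold of 0.05 over 14382 genes. SE come from the F value. The script was tested on simulated data. DESeq2 1.42.0, other scalings and filters, left-out samples and a block on the sample id were alternatives. Deviations from the group means (log2 CPM, prior count 2) correlated at 0.44, 0.32 and 0.24 between samples of the same id (ids 1, 3 and 4). Between samples of unlike ids they correlated at -0.35 to 0.07. Deviations from a group mean cancel within the group, so high values for the same id pull those for unlike ids down. The contrast between the 2 ranges is thus partly built in. On the ground of these counts and not the labels, samples of 1 id were paired in the block fit and in differences by id. The main fit, without the block, left the id out. For lists, blocked counts are given beside the others.

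The 9 genes and all lists were chosen with earlier results of these data known. Named are the 9 genes, each list gene that passed or, in lists with none, the 2 lowest p values, and the 5 genes most like Casp4 and Nlrp3. A few list genes that passed are counted but not reported by name here. Of stretches of 50 bases in GENCODE M21 transcripts, Casp1, Nlrp3 and Gsdmd shared 0% with other genes, Casp8 4.37% (Gm20257), Pycard 11.7% and the other 4 at most 1.09%.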

Additional observations from a re-analysis of the deposited data

How the results depend on the processing

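Casp4 passed under each of the 15 alternatives run, with a log2 fold change of -0.53 to -0.46. The number of genes that passed was 337, and 2197 with the replicate block, 580 in DESeq2, 846 with no filter, 142 to 417 without 1 sample and 2145, 1580 and 1529 in the block without id 1, 3 or 4. Of the 9 genes 2 passed, 4 with the block and in the block without any 1 id, and 1 to 3 without 1 sample. Of the other pathway genes 13 passed, 33 with the block and 31, 21 and 26 in the block without id 1, 3 or 4. Casp1, at a log2 fold change of -0.33, also passed with the block (-0.33, and -0.30, -0.33 and -0.36 without id 1, 3 or 4), in DESeq2 (-0.34), with no filter (-0.33) and without PM replicate 1 (-0.38 to -0.27 without 1 sample). Nlrp3 passed with the block (-0.28, and -0.31, -0.35 and -0.21 without id 1, 3 or 4) and had -0.55 to -0.05 without 1 sample. Nod1 had -0.71 to -0.51 without 1 sample. Pycard changed sign without 1 sample (-0.080 to 0.016, with 0.00034 without PM replicate 4) and in the block without id 3 (0.030), as did the ratios of Nlrp3 to Nlrc4 (-0.18 to 0.0055) and Gsdmd to Pycard (-0.056 to 0.060) without 1 sample. The cause of these changes was not tested. Nod1, with 151 counts in the shallowest sample, had the fewest counts of the 9 genes.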

Other observations

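Other genes of lytic death were measured as well. Gsdme, a gasdermin cut by caspase-3, averaged 10.3 ± 1.68 CPM with PM and 8.03 ± 0.941 CPM with PH (SD, n = 3 each), a log2 fold change of 0.34 ± 0.14 (SE) that passed with the sample id as a block (adjusted p = 0.0149, against 0.362 in edgeR without it). In the block without id 1 or id 3, 0 genes of its list were higher, so its call was lost there. P2rx7, the ATP-gated channel upstream of Nlrp3, was at 21.3, 17.1 and 17.5 CPM with PM, against 16.8, 10.9 and 13.2 CPM with PH. It was higher with PM in each id and passed with the block (adjusted p = 1.2e-04, against 0.254 in edgeR without it). Ninj1, which ruptures the membrane of dying cells, averaged 243 ± 36.0 CPM with PM and 227 ± 15.04 CPM with PH (SD, n = 3 each) and passed in neither edgeR fit (adjusted p = 0.764, or 0.231 with the block). Aim2, the sensor of cytosolic DNA, averaged 37.4 ± 1.39 CPM with PM and 36.0 ± 0.874 CPM with PH (SD, n = 3 each) and passed in neither fit. These 4 genes were picked after their values were seen.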
